A study of Monodelphis domestica and Mus musculus with 2 samples.

Results

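L6IT neurons of the mouse primary visual cortex (V1) were examined on 1 Stereo-seq chip. The members were the segmented cells that lay in a V1 region, passed the filter on genes and UMIs, and carried both the subclass label L6IT and the class label glutamatergic. This gave 407 cells of the 9127 V1 cells that passed the filter, and of 200608 segmented cells of mouse and opossum together. A further 18 V1 cells carried the subclass label L6IT but another class label, 7 of them GABAergic and 11 non-neuronal, and were not counted as members.

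In Stereo-seq, polyadenylated RNA from a tissue section is caught on an array whose spots carry position barcodes, and the unique molecular identifiers (UMIs) are summed over cells outlined on an image of the section. The tissue came from 1 male wild-type C57BL/6J mouse of about postnatal day 40, whose coronal cortical slices with both hemispheres were frozen in 1 block and cut at 10 µm. The authors drew 4 V1 regions, each reaching from layer 2/3 through layer 6, and labeled cells by their nearest neighbors in single-nucleus RNA-seq data of the same species. With 1 animal there was no replicate and no test was run, and the 4 regions, which lay in several coronal slices on the chip, describe 1 animal. Intervals are exact at 95% (Poisson for levels, Clopper-Pearson for shares) and cover counting error only.

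Intratelencephalic (IT) neurons are the glutamatergic cells whose axons stay within the telencephalon, linking cortical areas and the striatum. In layer 6 they share the layer with corticothalamic (L6CT) neurons, which project to the thalamus and are known for the transcription factor Foxp2 and the co-repressor Tle4. L6IT and L6CT cells therefore lie at similar depths but belong to different projection classes.

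L6IT cells made up 4.46% of V1 cells (interval 4.05 to 4.90%) and 7.65% of the 5322 glutamatergic cells with a subclass label. There were 198, 63, 55 and 91 L6IT cells in regions 1 to 4, or 5.58%, 4.01%, 2.88% and 4.34% of the cells there. Region 1 held the highest share and region 3 the lowest, and their intervals (4.85 to 6.38% and 2.18 to 3.74%) did not overlap. The shares are of cells that were segmented and passed the filter, and are not densities. The median L6IT cell had 1482 UMIs and 932 genes, against 1576.5 UMIs in L6CT (1156 cells), 1553 in L5IT (133 cells) and 1249.5 in L2/3 (1406 cells). All L6IT cells together held 635160 UMIs, and region medians ran from 1345 to 1544 UMIs.

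Of the 3 genes given as L6IT markers, only Zfp804b was measured at a level that could mark the cells. Osr1, a zinc finger transcription factor, had 2 UMIs in all 407 cells, and its level there (0.0315 UMIs per 10000, interval 0.00381 to 0.114) overlapped that in non-neuronal cells (0.0246, 0.00904 to 0.0536). Oprk1, the kappa opioid receptor, had 0 UMIs in L6IT cells, which allows a level of up to 0.0472 per 10000 at 3 counts (exact interval up to 0.0581). Zfp804b, which encodes a zinc finger protein, had 150 UMIs. A list of 7 deep IT type markers summed to 1.91 in L6IT cells (1.58 to 2.28), 1.90 in L6CT cells paired by depth (1.57 to 2.28) and 1.46 in non-neuronal cells (1.31 to 1.62), and did not separate L6IT from L6CT. The label thus rests on 1 of its 3 markers in these data, and was kept because it was set by the whole profile and not by these genes alone.

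Zfp804b was at 2.36 UMIs per 10000 in L6IT cells (2.00 to 2.77), with 2.62, 2.67, 1.44 and 2.18 in regions 1 to 4. L6CT was at 0.171 (0.117 to 0.241), L5IT at 0.239 (0.0778 to 0.559), L2/3 at 0.166 (0.112 to 0.237) and L4 at 0.142 (0.0983 to 0.198). The intervals of these 4 subclasses overlapped that of the non-neuronal cells (0.135, 0.0932 to 0.190), and the lowest L6IT region was above the highest region of each of them. L5PT, the pyramidal tract neurons of layer 5, came second at 1.14 (0.859 to 1.48), but its regions ran from 0.261 to 1.76 and overlapped those of L6IT. In region 4, 20 L5PT UMIs came from 2 cells. Because the label was given from expression, these levels describe it and do not test it.

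**Figure D1:**
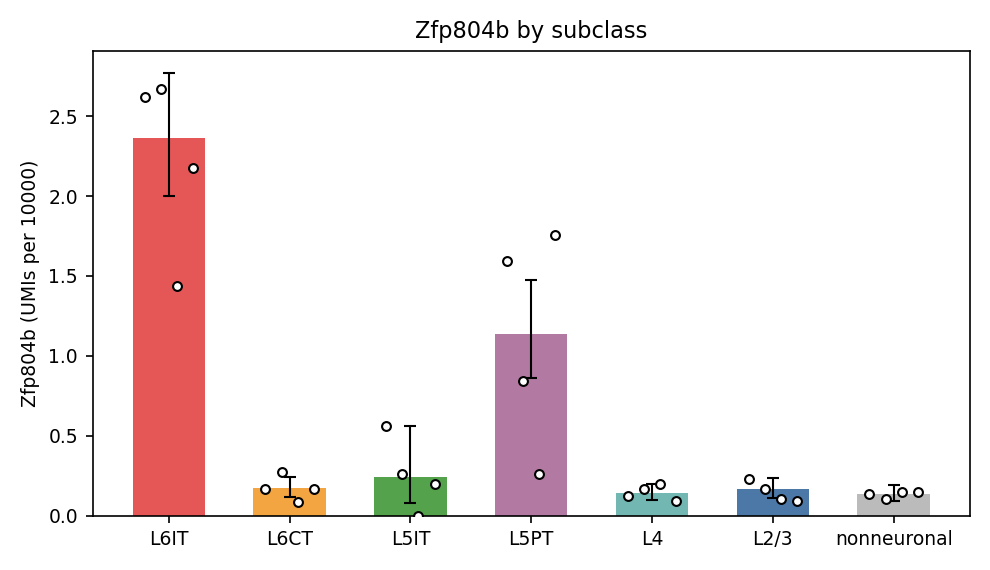
Level of Zfp804b in UMIs per 10000 UMIs (vertical axis) in L6IT and 5 other glutamatergic subclasses and in non-neuronal cells of mouse V1. Bars are pooled levels with exact 95% Poisson intervals and open points are the 4 V1 regions. The 4 L6IT regions sit between 1.44 and 2.67, above every region of L6CT, L5IT, L4, L2/3 and non-neuronal cells, while 2 of the L5PT regions reach 1.59 and 1.76.

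Most single L6IT cells showed no Zfp804b UMI. At least 1 UMI was found in 78 of 407 cells (19.2%, 15.4 to 23.3%), of which 43 had 1 UMI, 17 had 2 and 18 had 3 or more, up to 7 in a cell. The share was 2.25% in L6CT, 3.01% in L5IT, 1.28% in L2/3 and 7.42% in L5PT, and 1.71% in non-neuronal cells, whose median of 1245 UMIs was lower than that of L6IT. With every cell thinned to 300 UMIs, which left out 5 L6IT cells, the share was 6.97% in L6IT (4.68 to 9.91%), 0.347% in L6CT, 2.34% in L5PT and 0.490% in non-neuronal cells. UMIs that gather in single cells make the true error of a level wider than its Poisson interval.

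Segmented cells also held transcripts that mark other cell types. Slc17a7, the vesicular glutamate transporter of cortical glutamatergic neurons, was at 12.5 UMIs per 10000 in L6IT cells and at 10.8 in non-neuronal cells. The 3 microglia markers (Cx3cr1, P2ry12 and C1qa) summed to 0.677 in L6IT cells and 1.33 in non-neuronal cells. Levels in non-neuronal cells are therefore given beside some of the levels that follow. They are pooled over all 1873 non-neuronal cells of the V1 regions and were not matched in depth to L6IT cells.

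Position was not used to give the labels, but expression was, and cells held transcripts that mark other cell types. The depth of L6IT cells is therefore not fully independent of the rule that chose them. Depth was measured from the top of each region and scaled to the tallest region. The L2/3 and L6CT cells decided the axis of depth and which end was the top. L6IT cells had a median depth of 555 µm (interquartile range from 419 to 623 µm), between L5IT at 426 µm and L6CT at 655 µm, and below L4 at 261 µm and L2/3 at 135 µm. Region medians of L6IT were 553, 579, 573 and 538 µm, a spread smaller than the distance to L6CT or L5IT.

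The L6CT median lay 99.9 µm deeper than that of L6IT, by 94.5, 84.4, 86.3 and 125 µm in regions 1 to 4. Over all pairs of 1 L6IT and 1 L6CT cell, the L6IT cell was the shallower in 72.8%, and in 70.2 to 74.8% within the regions. The distributions still overlapped widely, since 161 L6IT cells (39.6%) lay deeper than the lower quartile of L6CT depth at 583 µm. By median depth L6IT therefore came above L6CT in every region, without a border between them. These values include the 104 L6IT cells above the L5IT median depth, and the order among deep cells alone was not computed.

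**Figure D2:**
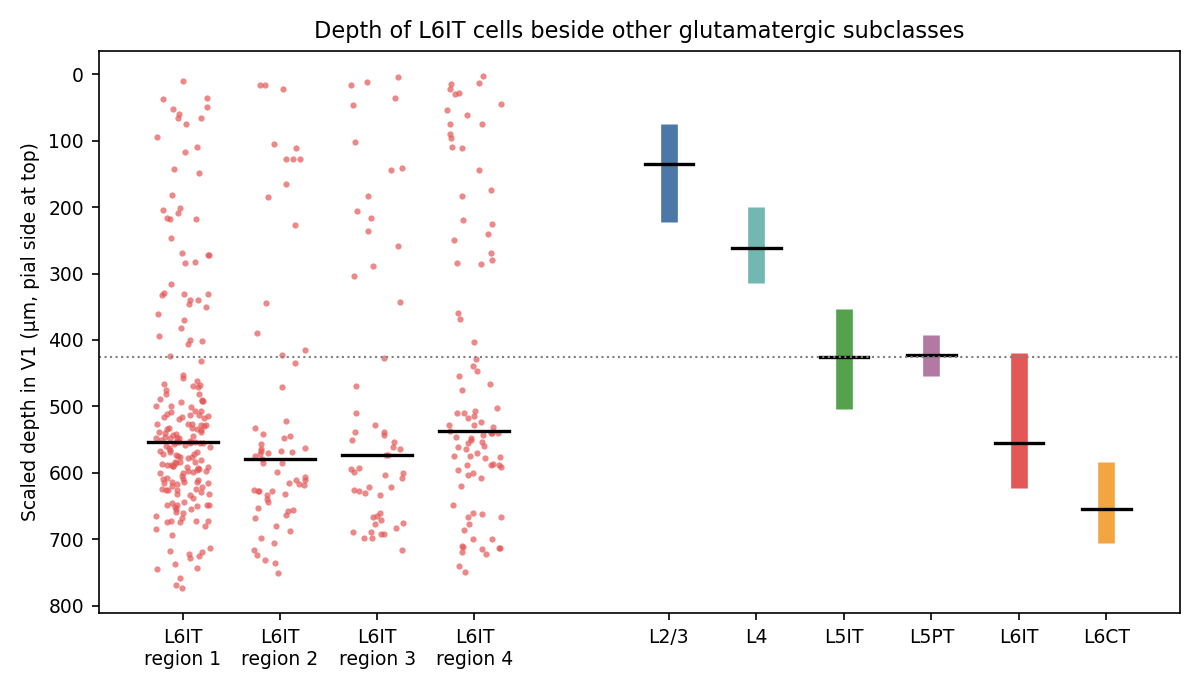
Depth in V1 scaled to the tallest region, in µm with the pial side at the top (vertical axis). Points are single L6IT cells in each of the 4 V1 regions with the median as a black line, and bars at right span the quartiles of each subclass pooled over regions with the median in black. The dotted line is the L5IT median at 426 µm. L6IT cells gather around 555 µm above the L6CT median of 655 µm, and 104 of 407 lie above the dotted line.

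Binned by depth, L6IT cells formed a band. They were 24.2% of labeled glutamatergic cells between 464.7 and 542.1 µm and 28.8% between 542.1 and 619.6 µm. The share then dropped to 14.0% and 7.60% in the deepest 2 bins, where L6CT reached 74.5% and 81.6%. From the top down to 464.7 µm it was between 1.89% and 5.32%. In the bin from 464.7 to 542.1 µm L6IT cells outnumbered L6CT cells, 66 to 49. That bin differed most between regions, with L6IT shares of 39.0%, 8.51%, 10.2% and 22.2% in regions 1 to 4.

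**Figure D3:**
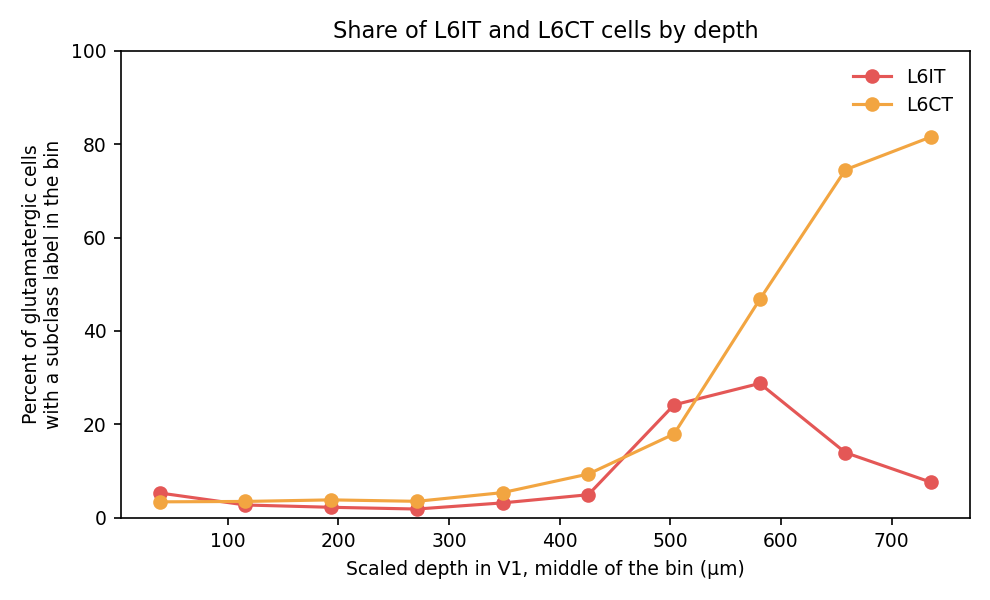
Percent of glutamatergic cells with a subclass label that were L6IT or L6CT (vertical axis) in 10 equal bins of scaled depth (horizontal axis, µm), pooled over the 4 V1 regions. L6IT peaks at 28.8% in the bin from 542.1 to 619.6 µm and falls to 7.60% in the deepest bin, while L6CT rises to 81.6%.

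The neighbors of L6IT cells mirrored this band. Among the 10 nearest labeled glutamatergic cells in the same region, 18.5% were L6IT on average and 38.1% were L6CT, against an L6IT share of 7.65% over all labeled glutamatergic cells. By region the L6IT share of neighbors was 23.6%, 16.3%, 11.8% and 12.7%, above the share of that region (10.05%, 6.58%, 5.04% and 6.995%) in each. Around L6CT cells 13.6% of neighbors were L6IT. The median distance from an L6IT cell to the nearest other L6IT cell was 26.5 µm, and from an L6CT cell to the nearest L6IT cell 31.2 µm.

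Part of the cells lay away from layer 6. Above the L5IT median depth were 104 L6IT cells (25.6%), with 22.2%, 23.8%, 29.1% and 31.9% in regions 1 to 4, and 68 (16.7%) lay above the L4 median. Around these upper cells 41.1% of neighbors were L4, 42.4% were L2/3 and 3.1% were L6IT, whereas around the 303 deep cells 49.5% were L6CT and 23.7% were L6IT. The median UMI count was 1134.5 in upper cells and 1648 in deep cells.

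The round in which a label was given moved with depth. In round 1 all 50 nearest snRNA-seq neighbors had to carry the label, and in rounds 2 and 3 at least 75% and 50%. The 146 cells of round 1 had a median depth of 589 µm and an interquartile range of 84.5 µm, and 8 of them (5.5%) lay above the L5IT median. The 206 cells of round 2 had a median of 522 µm and a range of 368 µm, with 38.8% above the L5IT median, and the 55 cells of round 3 had 534 µm, 243 µm and 29.1%. Round 1 was deeper than round 2 in each of the 4 regions, with medians between 574 and 615 µm against 511 to 553 µm. Zfp804b was at 3.68 UMIs per 10000 (2.98 to 4.50) in round 1, 1.73 (1.28 to 2.28) in round 2 and 0.572 (0.186 to 1.33) in round 3, and median UMIs were 1770.5, 1337.5 and 1472. The part of sequencing depth in this order was not tested. The round was itself set from expression, so the order of Zfp804b describes the labeling and is not independent of it.

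Genes of deep and upper L6IT cells differed, and not all in 1 direction. Kcnip4, a Kv channel-interacting protein that modulates A-type potassium currents, was at 22.2 UMIs per 10000 (20.9 to 23.5) in deep and 12.3 (10.4 to 14.4) in upper cells, and was higher in deep cells of every region. Sorcs3, a sorting receptor of the VPS10 family, was at 3.03 (2.57 to 3.55) and 1.45 (0.860 to 2.29). Lrrtm4, a leucine-rich repeat protein of excitatory synapses, was at 6.98 (6.28 to 7.75) and 4.27 (3.20 to 5.59). Zfp804b ran the other way, at 2.00 (1.63 to 2.42) in deep and 3.87 (2.85 to 5.13) in upper cells, and at least 1 UMI was found in 14.9% and 31.7% of them. It was higher in upper cells of each region, by the least in region 3 (1.71 against 1.37). Zfp804b is a marker of the label, and the label was given from expression. Its difference between deep and upper cells is therefore not independent of the labeling. Of the upper cells, 80 were labeled in round 2.

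Deep and upper cells also differed in the markers of the layers around them. The 8 L6CT markers summed to 11.5 UMIs per 10000 in deep and 3.55 in upper cells, with 10.99 in non-neuronal cells. Foxp2 had 22 UMIs in deep cells (0.430, 0.270 to 0.652) and 0 in upper cells, which allows a level of up to 0.242 at 3 counts, and its exact interval (up to 0.298) overlapped that of deep cells. The 5 L2/3 markers summed to 1.33 in deep and 3.87 in upper cells, against 5.41 in L2/3 and 1.99 in non-neuronal cells, and the calcium-binding protein Calb1 carried most of this (0.685, 0.477 to 0.952, against 2.10, 1.37 to 3.07). The part of RNA from the surrounding tissue in these differences was not tested.

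Upper L6IT cells differed in some genes from the L2/3 and L4 cells at their depth. The 3 labels were given from expression, so these differences describe the labels and do not test them. Il1rapl2 and Rora were chosen after their values were seen. Each was paired with an L2/3 and an L4 cell of the same region, giving 104 pairs. Zfp804b was at 3.87 in upper L6IT cells, 0.446 (0.164 to 0.971) in the paired L2/3 and 0.0813 (0.00206 to 0.453) in the paired L4 cells. Il1rapl2, a synaptic protein related to interleukin-1 receptor accessory proteins, had 24 UMIs in upper L6IT cells (1.94, 1.24 to 2.88), 0 in the paired L2/3 and 1 in the paired L4 cells. Lrrtm4 separated them from L2/3 (4.27 against 13.1, 11.2 to 15.2) and Rora, a nuclear receptor, from L4 (1.53, 0.922 to 2.39, against 6.26, 4.94 to 7.82). Kcnip4 was at 12.3, 13.8 and 9.59 in upper L6IT, L2/3 and L4, and the interval of upper L6IT (10.4 to 14.4) overlapped those of L2/3 (11.9 to 16.0) and L4 (7.94 to 11.5).

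**Figure D4:**
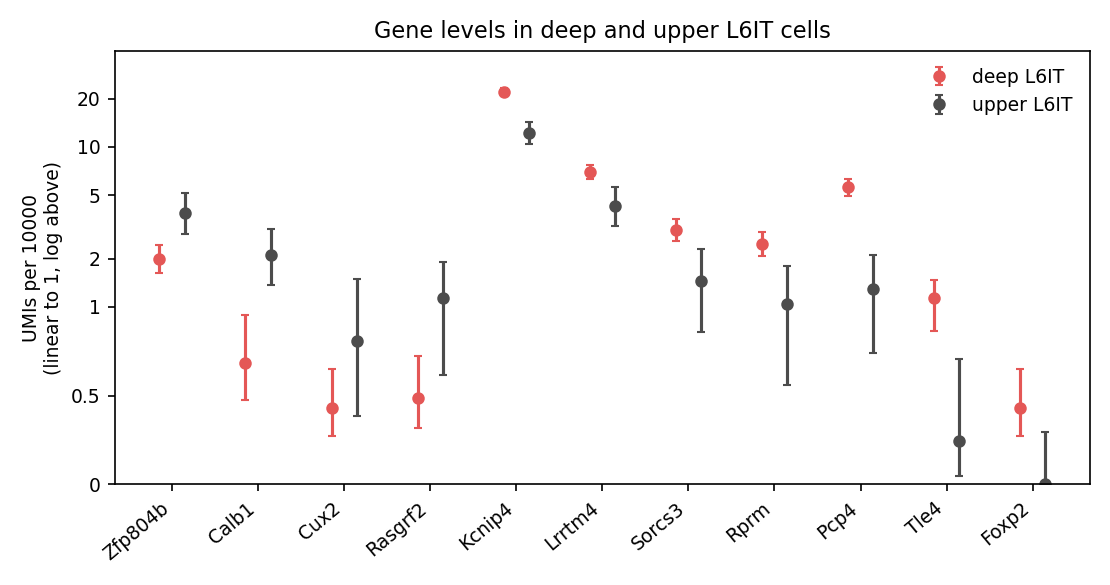
Level of 11 genes in UMIs per 10000 (vertical axis, linear up to 1 and logarithmic above) in the 303 L6IT cells below and the 104 above the L5IT median depth. Points are pooled levels with exact 95% Poisson intervals. Kcnip4 is at 22.2 in deep and 12.3 in upper cells, Zfp804b at 2.00 and 3.87, and Foxp2 has 0 UMIs in upper cells.

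Genes were then compared with L6CT cells at matched depth, although projection was not measured. The 385 L6IT cells that found an L6CT partner within 25 µm of depth in the same region had a median depth of 562 µm and their partners 575 µm, with 1517 and 1535 UMIs per cell. Of 2260 genes with a mean level of at least 1 UMI per 10000, 43 (1.9%) were higher in L6IT past 1.5-fold with 1 direction in every region, and 27 (1.19%) were lower. The Poisson intervals of the groups were apart for 40 (1.77%) and 26 (1.15%) of these. As the label was given from expression, the differences describe the label, with no test. The 385 pairs included L6IT cells above the L5IT median depth. In a pairing of 300 deep L6IT cells with L6CT cells, Kcnip4 was at 22.3 against 8.23 and Foxp2 at 0.435 against 1.83.

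Kcnip4 was among the 8 genes with the highest ratios. It was at 20.4 UMIs per 10000 (19.3 to 21.6) in L6IT and 7.93 (7.23 to 8.68) in paired L6CT, a log2 ratio of 1.35 with 1.54, 0.97, 1.39 and 1.34 in regions 1 to 4. Kcnq5, a subunit of the M-current potassium channel, was at 5.11 against 1.87 (log2 ratio 1.40). Ptprt, a receptor tyrosine phosphatase, was at 4.22 against 0.933 (2.06), Sorcs3 at 2.76 against 0.467 (2.33) and Lrrtm4 at 6.53 against 2.73 (1.23). Kcnip4 was at 5.47 in non-neuronal cells, below its interval in paired L6CT. Kcnq5, Sorcs3 and Lrrtm4 were at 1.67, 0.435 and 2.66 in non-neuronal cells. These values lay within the intervals of paired L6CT (1.54 to 2.25, 0.310 to 0.674 and 2.33 to 3.18). Ptprt and Egln2 were at 1.28 and 1.23 in non-neuronal cells. Zfp804b had the highest log2 ratio, 3.72, with 141 UMIs against 5. Egln2, an oxygen-dependent prolyl hydroxylase, and Enox1, a cell-surface oxidoreductase, completed the 8 highest with log2 ratios of 1.24 and 1.23. In single regions their log2 ratios were as low as 0.43 and 0.16.

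Of the 8 lowest genes, 3 were L6CT markers. Hs3st4, a heparan sulfate sulfotransferase, was at 1.18 UMIs per 10000 (0.925 to 1.49) in L6IT and 5.32 (4.75 to 5.93) in paired L6CT, a log2 ratio of -2.08 that lay between -2.17 and -1.64 in the regions. Foxp2 was at 0.361 against 1.73 (-1.99) and Tle4 at 1.00 against 2.37 (-1.16). In non-neuronal cells Hs3st4 was at 1.39, Foxp2 at 0.423 and Tle4 at 1.06, so the levels in L6IT cells were not above those in non-neuronal cells. Mgat4c, of a family of N-glycan branching enzymes, had the lowest log2 ratio at -2.71 (0.443 against 3.47), followed among the non-markers by the cadherin Cdh18 (-1.92), the homeobox factor Meis2 (0.476 against 1.53), the kainate receptor subunit Grik3 (-1.17) and Garnl3 (-1.15).

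**Figure D5:**
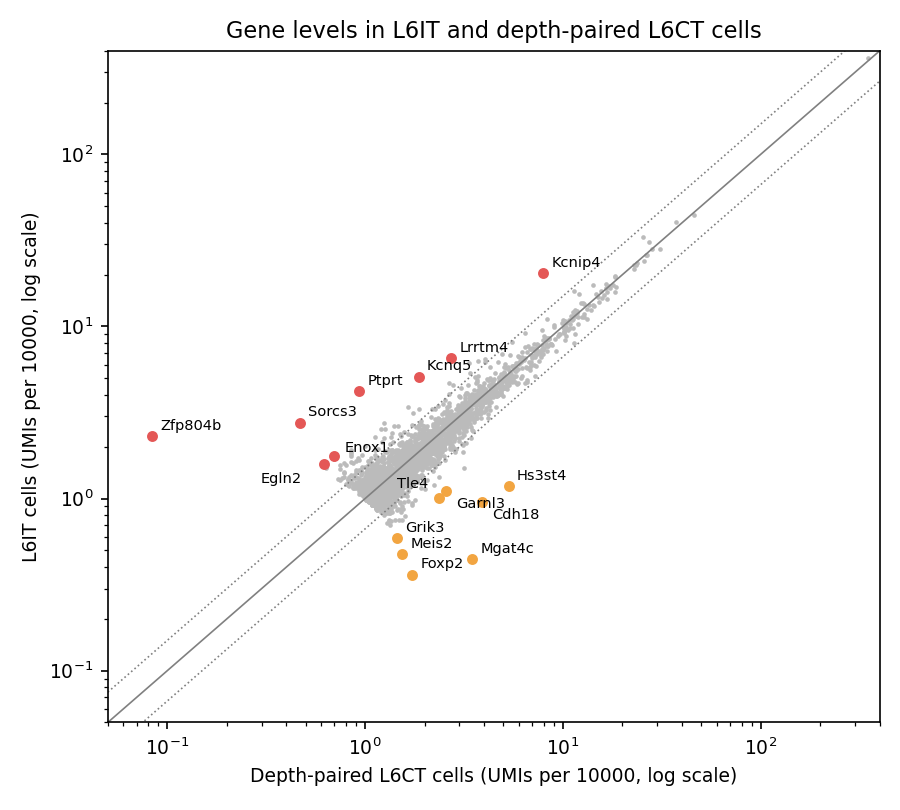
Level of each of 2260 genes in UMIs per 10000 in 385 L6IT cells (vertical axis) and in 385 L6CT cells paired by depth (horizontal axis), both on log scales. The solid line marks equal levels and the dotted lines a 1.5-fold difference, and the named points are the 8 genes at each end of the log2 ratios that had 1 direction in every region. Kcnip4 stands out among genes of high level at 20.4 against 7.93, and Zfp804b at 2.32 against 0.0833.

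By gene group, 3 of the 5 L6CT markers that reached the level minimum were lower in L6IT (Foxp2, Tle4 and Hs3st4) and none was higher, beside 1.19% lower over all genes. Rprm and Pcp4, the other 2, were at 2.25 against 3.42 and 4.86 against 6.61, and Syt6, Ntsr1 and Nxph3 were not tested. Foxp2 reached the level minimum, a mean over both groups, through L6CT, so its lower call follows in part from that minimum. Of 17 potassium channel genes tested, Kcnq5, Kcnab1 and Kcnip4 were higher and none was lower, beside 1.9% and 1.19% over all genes, while the median log2 ratio of the group was -0.07 and that of all genes -0.02. Among ionotropic glutamate receptors, 11 were tested, and the AMPA receptor subunit Gria4 was higher (log2 ratio 1.08) and Grik3 lower, with a group median of 0.32.

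The groups that follow are to be read beside the same 1.9% higher and 1.19% lower. Cacna1b, Cacna2d3, Plxna4, Slit3, Cdh13 and Gabrg3 were under the level minimum in L6CT and reached it through L6IT. Their higher calls therefore follow in part from the minimum. Of 15 sodium, calcium and HCN channel genes, 2 were higher, the calcium channel subunits Cacna1b (1.53 against 0.966, with intervals that overlapped) and the auxiliary subunit Cacna2d3 (1.79 against 0.966). Of 9 axon guidance genes, the semaphorin receptor component Plxna4 (1.43 against 0.783) and the Robo ligand Slit3 (1.61 against 0.783) were higher and none was lower, with a group median of 0.41. Of 8 cadherins tested, Cdh13 was higher (1.51 against 0.633) and Cdh18 lower. Gabrg3 was higher among 7 GABA-A receptor subunits (1.71 against 0.700). No member passed among the 14 layer transcription factors other than Tle4 and Foxp2, nor among 4 metabotropic glutamate receptors, 16 calcium- and calmodulin-binding proteins or 8 immediate early genes. All 7 genes of the opioid system stayed under the level minimum.

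Genomic span was examined after the values were seen. The median span of the 43 genes higher in L6IT than in paired L6CT cells was 429 kb (quartiles 182 and 805 kb), against 35.6 kb over all tested genes (12.7 and 109 kb) and 93.8 kb for the 27 lower genes. Nrg1 (6.17 against 3.33), Lrp1b (6.34 against 3.73), Ntm (6.47 against 4.02) and Lrrc4c (6.24 against 4.02), which encode a growth factor of the ErbB receptors, a lipoprotein receptor relative and a pair of neuronal adhesion molecules, were among the 43 higher genes. Against L5IT the medians of the higher and lower genes were 90.2 and 92.7 kb, beside 36.8 kb over all tested genes, and against L2/3 they were 257 and 228 kb, beside 36.6 kb. Spans come from the GENCODE annotation of GRCm39.

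Against L5IT, the IT subclass of the layer above, 75 of 2306 genes (3.25%) were higher in L6IT and 78 (3.38%) were lower. L5IT held 133 cells and 25 to 38 in a region, and the Poisson intervals were apart for 32 of the higher (1.39%) and 51 of the lower genes (2.21%). With 98 pairs at most 25 µm apart in depth, 18 of the 75 higher and 26 of the 78 lower genes were called again. The paired L6IT cells had a median depth of 437 µm, against 555 µm for all L6IT cells. Zfp804b (log2 ratio 2.86), Sorcs3 (1.87) and Kcnip4 (1.61) had the highest ratios. Kcnip4 was at 20.3 UMIs per 10000 (19.2 to 21.4) in L6IT and 6.56 (5.51 to 7.76) in L5IT, with log2 ratios from 1.09 to 2.39 in the regions.

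The netrin receptor Dcc (1.91 against 0.718), the kainate receptor subunit Grik5 (1.62 against 0.623), Enox1 (1.76 against 0.718) and Rprm (2.20 against 0.958), a gene known from layer 6, followed among the 8 highest. Rprm was at 2.54 in non-neuronal cells, so its level in L6IT (1.85 to 2.60) was not above theirs, while Dcc and Grik5 were at 0.858 and 1.26 there. For Dcc, Grik5, Enox1 and Rprm the intervals of L6IT and L5IT were apart. With cells paired at most 25 µm apart in depth, the log2 ratio of Grik5 was -0.18. Kctd16, an auxiliary subunit of GABA-B receptors, had a log2 ratio of 1.43, but 2 features carry this symbol and its value is uncertain.

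Among genes lower in L6IT than in L5IT, Il1rapl2 had the lowest log2 ratio. It was at 12.4 UMIs per 10000 (10.9 to 14.0) in L5IT and 1.75 (1.44 to 2.10) in L6IT, a log2 ratio of -2.75 that lay between -3.09 and -2.48 in the regions. In L6IT it was nonetheless above non-neuronal cells (0.238, 0.181 to 0.308), and above L6CT at matched depth (1.77 against 0.150, log2 ratio 2.91, from 2.17 to 3.31 in the regions), a comparison in which it stayed under the level minimum. The HMG-box factor Tox (0.488 against 3.21), Galntl6 (0.583 against 3.59), Cntnap5a (0.520 against 3.11), the orphan nuclear receptor Esrrg (0.299 against 1.77) and Ptprm (0.378 against 2.11) were lower by more than 2 on the log2 scale. Rora (log2 ratio -1.36) and the syntaxin-binding protein Stxbp6 (-1.33) completed the 8 lowest.

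The gene groups gave few calls against L5IT, to be read beside 3.25% higher and 3.38% lower over all genes. Dcc, Grik5 and Lmo3 reached the level minimum through L6IT and Etv1 through L5IT, which in part sets the direction of their calls. Kcnip4 was higher and Kcnq5 (5.13 against 8.86) and Kcnq3 (2.00 against 3.83) lower among 16 potassium channel genes, so that Kcnq5 was above L6CT and below L5IT in the same cells. Grik2 and Grik5 were higher among 10 ionotropic glutamate receptors (group median 0.34, all genes -0.03), Cacna1e among 13 sodium, calcium and HCN channel genes and Dcc among 12 axon guidance genes. Of 10 layer transcription factors, the LIM-only factor Lmo3 was higher (1.42 against 0.718) and Etv1, an ETS factor of layer 5, lower (0.834 against 1.49). The immediate early gene Fos was higher (3.10 against 1.72), alone among 8. No member of the 7 cadherins passed.

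Against L2/3, 42 of 2254 genes (1.86%) were higher in L6IT and 47 (2.09%) lower, and the Poisson intervals were apart for all of these. With 219 pairs at most 25 µm apart in depth, 6 of the 42 higher and 14 of the 47 lower genes were called again. The paired L6IT and L2/3 cells had median depths of 447 and 435 µm, against 555 and 135 µm for all cells. The pairs are thus not typical of either label. Zfp804b (log2 ratio 3.21) was followed by the adhesion proteins Tenm3 (1.71) and Cntn5 (1.49), by Ptprt (4.14 against 1.40), Rprm (1.44), the transporter Slc35f1 (1.42) and the metabotropic glutamate receptor Grm8 (1.31). Tenm3 was at 2.54 UMIs per 10000 (2.16 to 2.96) in L6IT and 0.703 (0.586 to 0.836) in L2/3, with log2 ratios between 1.26 and 2.08 in the regions. Gm49948 was the eighth (1.12), a predicted gene that overlaps Pcp4 on the same strand, so that their UMIs cannot be told apart, and its log2 ratio was -0.028 with cells paired at most 25 µm apart. In the 104 pairs of upper L6IT and L2/3 cells, Cntn5 was at 1.77 against 2.01 and Gm49948 at 0.887 against 2.60. The others named were higher in L6IT there, with intervals that overlapped for Tenm3, Rprm and Slc35f1. Rprm in L6IT was also not above its level in non-neuronal cells.

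Cux2, a homeobox factor of upper-layer neurons, was at 0.504 UMIs per 10000 (0.345 to 0.711) in L6IT and 2.11 (1.91 to 2.34) in L2/3, a log2 ratio of -1.87 that lay between -2.15 and -1.46 in the regions. Egfem1 (-2.23), the secreted protein gene Fam19a1 (-2.21), the ubiquitin ligase Pdzrn3 (-1.90), the Ras exchange factor Rasgrf2 (-1.75), Cntnap5a (-1.52), the heparan sulfate sulfotransferase Hs6st3 (-1.49) and Stxbp6 (-1.22) were the others of the 8 lowest. Of the 5 L2/3 markers, Cux2 and Calb1 reached the level minimum and both were lower, beside 2.09% over all genes. Otof, Stard8 and Wfs1 did not reach it. The minimum is a mean over both groups, and Cux2 and Calb1 reached it through L2/3. Their lower calls therefore follow in part from the minimum and are no support for the label.

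Genes that set L6IT apart from L6CT were not all set apart from L2/3. Kcnip4 was at 20.3 in L6IT and 19.5 in L2/3 (log2 ratio 0.06, from -0.18 to 0.63 in the regions), Kcnq5 at 5.13 and 5.25 (-0.03) and Sorcs3 at 2.72 and 2.03 (0.41). Lrrtm4 was lower than in L2/3 (6.46 against 12.4, log2 ratio -0.94). Zfp804b and Enox1 were at 2.36 and 1.76 in L6IT against 0.166 and 0.897 in L2/3, and Il1rapl2 at 1.75 against 0.221, under the level minimum. The comparisons share the same L6IT cells, so their ratios are not independent.

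The groups against L2/3 are to be read beside 1.86% higher and 2.09% lower over all genes. Dcc and Unc5c reached the level minimum through L6IT and Epha6 through L2/3, which in part sets the direction of their calls. The netrin receptors Dcc (1.91 against 0.985) and Unc5c (1.61 against 0.814) were higher and Unc5d (1.31 against 2.36) and the ephrin receptor Epha6 (0.756 against 1.59) lower among 10 axon guidance genes. Of 15 potassium channel genes Kcnb2 was lower (1.02 against 2.25). The calcium channel gene Cacna1c was lower (1.40 against 2.63). Lmo3 was higher and Cux2 lower among 12 layer transcription factors, and Grik5 was higher among 10 ionotropic glutamate receptors. Pcp4 was higher (4.76 against 2.22, with 4.93 in non-neuronal cells) and Calb1 and Camk2n1 (10.6 against 17.2) lower among 17 calcium- and calmodulin-binding proteins. Mobp, a myelin gene of oligodendrocytes, was also higher (3.72 against 1.98, with 5.18 in non-neuronal cells), and the 5 oligodendrocyte markers summed to 23.9 in L6IT, 16.3 in L2/3 and 29.1 in L6CT. The part of oligodendrocyte RNA in the deep layers was not tested.

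The deposited type labels split L6IT cells further. L6IT_A was carried by 217 cells and L6IT_B by 16, while 109 had no type label and 65 (16.0%) carried a type of another subclass, including 32 with the type label Micro, for microglia. L6IT_A and L6IT_B had median depths of 576 and 536 µm. Zfp804b was at 3.58 UMIs per 10000 (2.98 to 4.27) in L6IT_A and had 0 UMIs in L6IT_B, which allows a level of up to 1.03 at 3 counts (exact interval up to 1.27). Dcc was at 1.75 in L6IT_A and 11.7 (8.07 to 16.3) in L6IT_B, and the potassium channel gene Kcnb2 at 1.02 and 5.83 (3.40 to 9.33). Lrrtm4 was at 9.08 and 1.71 (0.557 to 4.00). Of the 16 L6IT_B cells 9 lay in region 1, 6 in region 2 and 1 in region 4.

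The L6IT cells with the type label Micro did not carry microglial transcripts at the level of microglia. Their 3 microglia markers summed to 0.878 UMIs per 10000 (0.285 to 2.05), against 0.699 (0.448 to 1.04) in L6IT_A cells and 3.97 (3.16 to 4.91) in the 163 non-neuronal cells of the subclass Micro. Zfp804b was at 0.351 (0.0425 to 1.27) in them, from 2 UMIs, and their median depth was 564 µm.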

How the data were processed

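The reads were aligned to GRCm39 in the Stereo-seq Analysis Workflow and summed over segmented cells, and the authors deposited raw UMI counts per gene and cell with V1 regions and labels, keeping cells with at least 50 genes and 100 UMIs. Class and subclass labels came from 50 nearest snRNA-seq neighbors in integrated space, in 3 rounds.

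From these counts, levels were computed as summed UMIs of a group per 10000 UMIs, and log2 ratios with 0.1 per 10000 added to both levels. A gene was tested with a mean level of both groups of at least 1 per 10000 and called past 1.5-fold with 1 direction in all 4 V1 regions. A gene under this minimum in 1 group was tested only if the other group was high enough, which in part sets the direction of its call. L6IT and L6CT cells were paired 1 to 1 within a region at most 25 µm apart in depth. The named genes are the 8 highest and 8 lowest log2 ratios with 1 direction in every region, the marker genes, and members of gene lists that passed or had the highest levels. Il1rapl2 and Rora in upper cells, the long genes and the genes of L6IT_A and L6IT_B were chosen after their values were seen. The members and lists were chosen with earlier results of these data known. The ratio computation was tested on simulated data. Of 61317 features, 61249 are in the GENCODE annotation used for gene spans, and Ccn2 and Bcl11b are not analysed here. Some genes of the lists are not reported here. Counting was not stated to use strand, so overlapping genes cannot be told apart. Analyses used scipy 1.17.1 with pandas 2.3.3, shapely 2.1.2 and numpy 2.4.6 under Python 3.11.15, and figures matplotlib 3.10.9. The alternatives were other filters, labels of rounds 1 and 2, thinning to 300 UMIs, other thresholds, pairings and borders, and each region left out in turn.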

Additional observations from a re-analysis of the deposited data

How the results depend on the processing

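With 1 animal and no replicate, the limits are the V1 regions, which are not independent, the labels, which came from expression, and the depth of about 1482 UMIs per L6IT cell. Without scaling of depth to the tallest region, the median L6IT depth was 517.9 µm and the distance to L6CT 80.1 µm. With the L4 median or the L4 upper quartile as the border, 83.3% and 80.6% of L6IT cells lay below it, against 74.4% below the L5IT median. Counts of genes depended on the thresholds, and are given as higher and lower. Against L6CT (43 and 27), they were 80 and 60 with every cell thinned to 300 UMIs, 15 and 4 at a level minimum of 2, 120 and 90 at 0.5, 106 and 101 at the lower of the other fold thresholds, 13 and 9 at 2-fold, and 20 and 9 with a pseudocount of 1. The thinned cells shared 12 of the 43 higher and 4 of the 27 lower genes. With labels of rounds 1 and 2 alone 43 genes were lower, and without cells of another type label, an alternative chosen after seeing the data, 42. Against L5IT (75 and 78), 145 were higher in thinned cells, and the counts were 16 and 24 at a minimum of 2, 197 and 170 at 0.5, 139 and 139 at the lower fold, 9 and 18 at 2-fold, and 17 and 26 with a pseudocount of 1. With pairs at most 25 µm apart, 120 were lower. Against L2/3 (42 and 47), they were 94 and 90 thinned, 10 and 20 at 2, 96 and 107 at 0.5, 117 and 135 at the lower fold, 9 and 11 at 2-fold, and 13 and 22 with a pseudocount of 1. The 48 log2 ratios named in the comparisons were chosen as extremes with 1 direction in every region. Of 544 recomputed values, 542 kept their direction. That choice and the reuse of the same cells favor a kept direction, so this count is no test of the genes. With pairs at most 25 µm apart Grik5 against L5IT was at -0.18 and Gm49948 against L2/3 at -0.028. The cause was not tested.

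Leaving out each region in turn, the L6IT share was 3.75 to 4.88%, the median depth 550.7 to 561.6 µm, its interquartile range 170.3 to 285.3 µm, and the distance to L6CT 93.0 to 102.7 µm. The medians of rounds 1, 2 and 3 were 586.6 to 603.6, 518.3 to 531.3 and 528.4 to 546.9 µm. L6IT made up 13.6 to 20.1% and L6CT 37.3 to 39.4% of neighbors, and 71.3 to 76.3% of L6IT cells lay below the L5IT median. Zfp804b was at 2.13 to 2.52 in L6IT, 0.149 to 0.191 in L6CT, 1.57 to 2.18 in deep and 3.49 to 4.23 in upper L6IT cells. With 3 regions the rule of 1 direction was looser, and 56 to 91 genes were higher and 44 to 85 lower than in L6CT, 103 to 126 and 122 to 146 than in L5IT, and 42 to 84 and 58 to 68 than in L2/3. Leaving out region 1 gave the highest of these counts in each comparison and direction. No paired analysis was possible because each group came from 1 animal, so that there were no replicate samples to pair.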
